A study of Homo sapiens with 40 samples.

Results

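The comparison set 2 arrays of A549 cells depleted of ZNF282 directly against 4 arrays of A549 cells depleted of CoCoA, all given dexamethasone (dex). The 6 arrays were found by their labels among the 40 of the study, and this pair of depletions was taken because, of the pairs in the study, it shared the most changes in expression. What the depletions share against other cells is therefore a description and no finding. The study asked how 4 coregulators of the glucocorticoid receptor (GR, gene NR3C1) shape the genes it controls. A549 is an established human lung carcinoma line. The siZNF282 cells had received an siRNA that the titles call ZFP282 #1, and the labels give no other against ZNF282. The siCoCoA cells had received siRNA against CoCoA, whose gene is CALCOCO1. The labels name no second siRNA for either target, so loss of the target and other effects of its siRNA cannot be told apart. Both had been transfected with Oligofectamine, moved 2 days later to hormone-free medium with charcoal-stripped serum, and exposed on the following day to 100 nM dex for 6 h. The same 2 depletions with ethanol in place of dex (2 and 4 arrays) were used to ask whether a difference needed the hormone. Cells with nonspecific siRNA (siNS) in dex (6 arrays) gave the level without a depletion. The titles of the ethanol arrays say 0 h, whereas the protocol gives ethanol for the same 6 h. The array numbers below are those of the labels, which gave siZNF282 the numbers 2 and 3 and siCoCoA the numbers 1 to 4. The labels do not tell if separate cultures lie behind them. P-values come from a fit to all 40 arrays and measure the spread within its groups, which may be partly technical.

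ZNF282 is a zinc finger protein and CoCoA a coiled-coil protein, and both are known as coactivators that GR and other transcription factors recruit. Much of what follows concerns the interferon system. A cell that senses double-stranded RNA, through receptors such as RIG-I and MDA5, makes interferon beta and lambda interferons. Secreted interferon binds its receptors and switches on the factor ISGF3, of which IRF9 is a part and which binds interferon-stimulated response elements (ISREs) in the promoters of antiviral genes. The interferon regulatory factors IRF1, IRF3 and IRF7 read related elements. Glucocorticoids are known to restrain inflammatory genes driven by NF-kB and AP-1, and A549 cells are a common model for both responses.

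Values are the deposited log2 signals of 10608 genes, each read by its brightest probe. Differences are siZNF282 minus siCoCoA on the log2 scale with the standard error of a limma fit to all 40 arrays. A gene was called when its p, adjusted over all 10608 genes, was under 0.05. The letters below show a sequence that was frequent in the promoters of the genes that rose most. RefSeq promoters of build GRCh38.p14, 250 bases before to 50 after a gene's start, were available for 11 of the 14 genes with the largest rises. The ISRE core, spelled GAAA, any 2 bases and GAAA and read on both strands, was in 9 of these 11 promoters. It was in 0 of the 8 promoters matched among the 14 largest falls. Of genes called at least 2-fold higher, 13.2% of 219 promoters held it, and of those called at least 2-fold lower, 0.971% of 103. The share was 2.89% over the 8614 tested genes with a promoter and 3.65% over the 27305 promoters of the table. The windows below are those of the 6 largest rises that held the core before their start, and rises without such a match were passed over. The windows run 5′ to 3′ on the strand of the gene, end at its start or before and carry the match in capitals.
BST2: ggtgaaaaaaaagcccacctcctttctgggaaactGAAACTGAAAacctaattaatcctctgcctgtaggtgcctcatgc
CXCL10: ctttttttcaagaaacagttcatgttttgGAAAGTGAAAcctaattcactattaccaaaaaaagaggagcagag
IFITM1: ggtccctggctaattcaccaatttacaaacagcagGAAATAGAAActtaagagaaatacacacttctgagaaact
IFNL1: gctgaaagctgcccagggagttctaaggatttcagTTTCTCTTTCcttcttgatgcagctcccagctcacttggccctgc
TNFSF10: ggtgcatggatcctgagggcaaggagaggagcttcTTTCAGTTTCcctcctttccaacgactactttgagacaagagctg
CFB: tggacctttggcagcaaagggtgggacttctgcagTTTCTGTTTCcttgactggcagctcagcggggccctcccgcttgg
They lie at chr19:17405710-17405789 on the minus strand (BST2), chr4:76023674-76023747 on the minus strand (CXCL10), chr11:313965-314039 on the plus strand (IFITM1), chr19:39296164-39296243 on the plus strand (IFNL1), chr3:172523573-172523652 on the minus strand (TNFSF10) and chr6:31945920-31945999 on the plus strand (CFB). In IFNL1, TNFSF10 and CFB the core is on the other strand, so that the capitals hold its reverse complement.

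The same core also stood before interferon genes that were not called between the depletions. For comparison, these are the windows of the 3 brightest interferon-list genes in siCoCoA cells that held the core before their start and were not called.
IFIT1: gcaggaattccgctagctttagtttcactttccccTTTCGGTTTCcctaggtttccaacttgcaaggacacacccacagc
ISG15: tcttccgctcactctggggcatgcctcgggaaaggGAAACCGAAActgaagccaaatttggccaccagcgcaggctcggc
B2M: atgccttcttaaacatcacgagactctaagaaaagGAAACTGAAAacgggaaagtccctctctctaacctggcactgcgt
They lie at chr10:89392485-89392564, chr1:1013355-1013434 and chr15:44711344-44711423, on the plus strand in each case. Within the 6 interferon and inflammatory lists described below, the core was in 24 of 49 promoters of genes called higher (49.0%) and in 18 of 45 promoters of genes not called (40%). A match is a run of letters and not a shown binding site.

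The siRNA targets were examined first. CALCOCO1 read 6.15 and 5.93 on siZNF282 arrays 2 and 3, against 4.48, 4.43, 4.54 and 4.56 on the siCoCoA arrays, and 4.95 to 5.68 (median 5.39) in siNS cells. Its 4 siCoCoA values lay under 5, the line below which a probe was treated as dim. It was therefore at least 2.06-fold higher in siZNF282 cells (1.54 ± 0.19, adjusted p = 1.43e-07). ZNF282 read 6.11 and 6.17 in siZNF282 cells, against 7.34, 6.98, 6.67 and 6.87 in siCoCoA cells and 6.61 to 7.48 in siNS cells. The groups did not overlap, and the difference of -0.82 ± 0.28 was called (adjusted p = 0.0314). That call was lost without either siZNF282 array, without siCoCoA array 1 and with no filter on dim probes. In ethanol ZNF282 was lower by -1.37 (adjusted p = 0.000337). The transcripts of the other 2 coregulators of the study were read as well. CCAR2, a nuclear coregulator also known as DBC1, read 8.71 and 8.46 in siZNF282 cells, against 7.88, 7.99, 8.04 and 7.23 in siCoCoA cells and 8.59 to 9.14 in siNS cells (0.80 ± 0.19, adjusted p = 0.00254, lost without siZNF282 array 2). CCAR1 differed by -0.45 (95% interval -0.97 to 0.07) and NR3C1, the receptor itself, by -0.23 (-0.68 to 0.21), and neither was called. In bulk RNA, fewer cells of a kind and less RNA per cell cannot be told apart, and this holds for every value here.

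Across the 10608 genes, 1118 (10.5%) were called higher and 1110 (10.5%) lower in siZNF282 than in siCoCoA cells in dex. These shares are the background for the calls in each list below. The 2 directions were unequal in size. At least 2-fold, 293 genes were higher and 135 lower. The median difference over all genes was -0.02. Both siZNF282 arrays lay above all 4 siCoCoA arrays for 2074 genes (19.6%) and below them for 2214 (20.9%). The 2 siZNF282 arrays correlated at 0.987 over all genes and the siCoCoA arrays at 0.981 to 0.991, against 0.959 to 0.973 for pairs across the groups. With 2 arrays the count leaned on each of them. Without siZNF282 array 2 it was 1032 calls and without array 3 it was 1544 calls, where the lone array was assumed to vary like the other groups.

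The 14 largest rises were IL18BP, LAMP3, CCL5, BST2, CXCL10, IFITM1, SLC15A3, IFNL1, HLA-B, CFB, TNFSF10, IFITM3, LGALS9 and IFNL2, and they ran from 5.40-fold to 11.8-fold. IL18BP, a secreted decoy that neutralises interleukin 18, read 9.89 and 8.21 in siZNF282 cells, against 4.91, 6.09, 5.16 and 5.82 in siCoCoA cells and 4.40 to 5.10 in siNS cells. Its difference of 3.56 ± 0.46 (adjusted p = 4.89e-07) was the largest of all, with no overlap between the groups. SLC15A3, an endolysosomal peptide transporter, read 9.05 and 8.64 in siZNF282 cells, against 5.57, 6.41, 5.80 and 6.15 in siCoCoA cells (2.86 ± 0.49, adjusted p = 5.01e-05). CFB, the complement factor B of the alternative pathway, read 12.31 and 11.41 in siZNF282 cells, against 8.87, 9.41, 8.98 and 9.48 in siCoCoA cells and 6.86 to 8.01 in siNS cells (2.67 ± 0.48, adjusted p = 7.17e-05). LGALS9, the secreted lectin galectin-9, read 8.95 and 8.20 in siZNF282 cells, against 6.36, 6.59, 5.33 and 6.25 in siCoCoA cells (2.45 ± 0.37, adjusted p = 7.79e-06). For each of the 14 the 2 siZNF282 values stood above the 4 siCoCoA values, and of these calls that of HLA-B was lost without siZNF282 array 2.

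**Figure D1:**
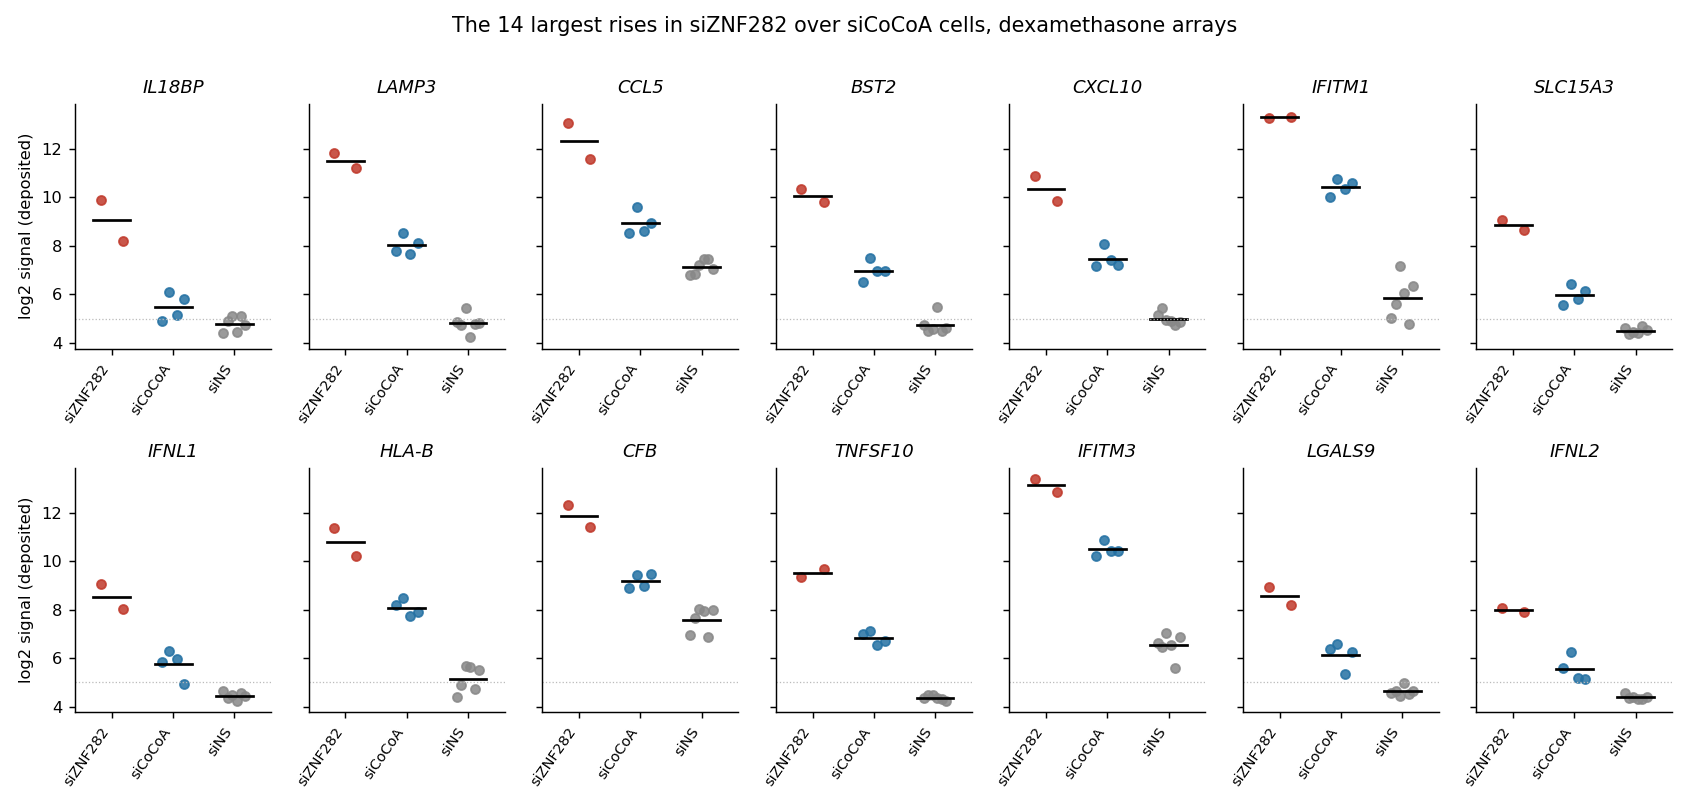
Deposited log2 signal (vertical axis) of the 14 genes with the largest rises, with a point for each dex array of siZNF282 (2), siCoCoA (4) and siNS (6) cells and a bar at each group mean. The dotted line marks 5, the line for dim probes. In each panel both siZNF282 points lie above all siCoCoA points, and for IL18BP they are 9.89 and 8.21 against 4.91 to 6.09.

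Several interferon genes were higher in siZNF282 cells. Of 20 tested genes for interferons, their receptors, STATs and IRFs, 12 were called higher and 0 lower, with a median difference of 0.64. A gene was tested if its mean passed 5 in any group, so members dim in every group are not among the 20. With no filter on dim probes, 11 members were called higher. IFNL1, which encodes a lambda interferon that acts mainly on epithelia, read 9.06 and 8.01 in siZNF282 cells, against 5.83, 6.27, 5.94 and 4.92 in siCoCoA cells and 4.22 to 4.64 in siNS cells (2.80 ± 0.49, adjusted p = 6.33e-05). IFNL2 read 8.05 and 7.88 against 5.59, 6.24, 5.17 and 5.14 (2.43 ± 0.42, adjusted p = 4.60e-05), and IFNL3 read 6.33 and 6.04 against 4.97, 5.13, 4.43 and 4.43 (1.44 ± 0.25, adjusted p = 6.34e-05). IFNL2 and IFNL3 are near-identical genes, so their probes may share signal. IFNB1, interferon beta, read 7.57 and 6.99 in siZNF282 cells, against 6.05, 6.51, 5.60 and 4.69 in siCoCoA cells and 4.26 to 4.59 in siNS cells. Its difference was 1.57 ± 0.38 (adjusted p = 0.00244). The 4 interferon genes had siNS values under 5 on every dex array, and all their siZNF282 values lay above 5. In siCoCoA cells IFNL3 also read under 5 on arrays 1, 3 and 4, and IFNL1 and IFNB1 did on array 4. Of the IRFs, IRF1 read 9.85 and 10.03 in siZNF282 cells, against 7.85, 8.89, 8.64 and 8.58 in siCoCoA cells and 6.88 to 7.91 in siNS cells (1.45 ± 0.39, adjusted p = 0.00676). IRF7 read 11.56 and 11.22 against 10.05, 10.38, 9.82 and 10.32 (1.25 ± 0.44, adjusted p = 0.0404). Of its other probes, 1 differed by 1.04 and another, near the line of 5, by -0.44. IRF9, the DNA-binding subunit of ISGF3, differed by 0.18 (95% interval -0.41 to 0.76), and IRF3, IRF2, JAK1 and TYK2 were not called either. Without siZNF282 array 2 the list had 7 calls and without array 3 it had 6. The call of IFNB1 was lost without array 2, and those of IRF1 and IRF7 without either. IRF7 also lost it without siCoCoA arrays 1, 3 or 4, with the probes of a gene averaged, with no filter and with a trended robust variance.

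Sensors of foreign nucleic acid come before the interferons in the pathway. Of 14 tested, 5 were called higher and 0 lower, with a median of 0.49. DHX58 encodes LGP2, a helicase that tunes RIG-I and MDA5. It read 7.64 and 7.06 in siZNF282 cells, against 5.18, 5.82, 5.31 and 5.58 in siCoCoA cells (1.88 ± 0.36, adjusted p = 0.000188). The kinase gene IKBKE, the endosomal RNA receptor TLR3, the DNA sensor CGAS and the antiviral zinc finger ZC3HAV1 rose by 1.05, 0.73, 0.72 and 0.60. CGAS, dim on every siCoCoA array, was at least 1.36-fold higher. EIF2AK2, the RNA-activated kinase PKR, read 11.30 and 11.66 in siZNF282 cells, against 11.53, 11.59, 11.53 and 11.32 in siCoCoA cells and 8.98 to 9.91 in siNS cells. Its groups overlapped, with a difference of -0.01 (95% interval -0.45 to 0.43). The list held 1 call without siZNF282 array 2, 3 without array 3 and 3 without siCoCoA array 3. The calls lost were those of IKBKE and ZC3HAV1 without siZNF282 array 2, and of TLR3 and CGAS without either siZNF282 array or siCoCoA array 3. That of TLR3 was also lost without siCoCoA array 4 and with no filter, and that of ZC3HAV1 with the probes of a gene averaged.

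Interferon-stimulated effectors, the antiviral proteins at the end of the pathway, were the longest interferon list. Of 40 tested, 18 were called higher and 0 lower, and the median difference was 0.94. The mean level of the list was 10.53 and 10.58 on the siZNF282 arrays, 9.32 to 9.68 on the siCoCoA arrays and 6.08 to 7.14 on the siNS arrays. LAMP3, a lysosomal membrane protein induced by interferon, read 11.82 and 11.20 in siZNF282 cells, against 7.80, 8.53, 7.65 and 8.11 in siCoCoA cells and 4.25 to 5.42 in siNS cells (3.48 ± 0.62, adjusted p = 7.38e-05). BST2, or tetherin, which holds budding virions at the cell surface, read 10.33 and 9.81 against 6.50, 7.49, 6.98 and 6.96 (3.09 ± 0.59, adjusted p = 0.000183). IFITM1 and IFITM3 block viral entry at membranes. IFITM1 read 13.29 and 13.33 in siZNF282 cells, against 10.02, 10.77, 10.36 and 10.60 in siCoCoA cells and 4.80 to 7.19 in siNS cells (2.87 ± 0.71, adjusted p = 0.00315). IFITM3 read 13.40 and 12.84 in siZNF282 cells, against 10.22, 10.88, 10.41 and 10.41 in siCoCoA cells (2.65 ± 0.58, adjusted p = 0.000907). The IFITM genes are close paralogs whose probes may share signal. The GTPases GBP1 and MX2 rose by 2.32 ± 0.56 and 2.20 ± 0.46. Both siZNF282 arrays lay above all siCoCoA arrays for 31 of the 40, while 19.6% of all genes did. Without siZNF282 array 2 the count of calls was 10.

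Some effectors were high in both depletions and were not called, and the 4 named here were chosen after their values were seen. ISG15, a ubiquitin-like modifier, read 14.05 and 13.93 in siZNF282 cells, against 12.86, 13.43, 12.90 and 13.02 in siCoCoA cells and 6.59 to 9.58 in siNS cells. Its difference was 0.94 (95% interval -0.29 to 2.17, adjusted p = 0.299). MX1, a GTPase that blocks viral replication, read 13.85 and 13.97 against 13.16, 13.64, 13.19 and 13.13 (0.63, interval -0.63 to 1.89). IFIT1, which binds viral RNA, read 14.01 and 13.83 against 13.31, 13.38, 13.07 and 12.96 (0.74, interval -0.30 to 1.77). The siZNF282 levels of these 3 were near the highest value on any array, and the part of the upper end of the scale in their differences was not tested. B2M, the light chain of MHC class I, read 13.67 and 13.47 against 12.36, 13.04, 12.84 and 13.12 (0.73, interval 0.03 to 1.43, adjusted p = 0.136). In each of the 4 the siZNF282 arrays stood above the siCoCoA arrays with no overlap. The median SD of the interferon and inflammatory genes was 0.16 among the siZNF282 arrays and 0.25 among the siCoCoA arrays. It was 0.37 and 0.44 in the siCCAR1 and siCCAR2 dex groups that entered the same fit. With the 2 groups alone 27 of the 40 effectors were called. The part of spread in these calls was not tested.

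The IFIT and OAS families sense or sequester viral RNA. Of 6 tested, 3 were called higher and 0 lower (median 1.48), and 5 were called with the 2 groups alone. OAS2, which makes the 2-5A that activates RNase L, read 9.68 and 9.22 in siZNF282 cells, against 7.66, 7.95, 7.19 and 7.08 in siCoCoA cells and 4.30 to 4.50 in siNS cells (1.98 ± 0.61, adjusted p = 0.0176). A second OAS2 probe differed by 0.54. IFIT2 read 13.07 on each siZNF282 array, against 11.02, 11.56, 11.19 and 10.71 on the siCoCoA arrays (1.95 ± 0.59, adjusted p = 0.0149). OASL, an OAS-like protein that enhances RIG-I signalling, rose by 1.55 ± 0.52 (adjusted p = 0.0288). These 3 calls were lost without either siZNF282 array, which left 0 calls in the list. OASL also lost its call without siCoCoA array 4, and OAS2 with its probes averaged.

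The machinery that presents peptides on MHC class I was higher in siZNF282 cells in 15 of 20 tested genes and lower in 0, with a median of 1.03. HLA-B, a classical heavy chain, read 11.37 and 10.21 in siZNF282 cells, against 8.17, 8.48, 7.72 and 7.90 in siCoCoA cells and 4.41 to 5.67 in siNS cells (2.73 ± 0.62, adjusted p = 0.00135). The nonclassical HLA-E read 12.22 and 11.73 against 10.12, 10.86, 10.35 and 10.39 (1.55 ± 0.25, adjusted p = 2.00e-05). HLA-F and HLA-G rose by 1.96 ± 0.41 and 1.65 ± 0.30. The HLA heavy chains are so similar that their probes may cross-react. TAP2, a subunit of the peptide transporter, read 9.02 and 8.38 in siZNF282 cells, against 7.57, 7.49, 6.90 and 6.79 in siCoCoA cells (1.51 ± 0.42, adjusted p = 0.00761). ERAP2, a peptide-trimming enzyme of the endoplasmic reticulum, rose by 1.40 ± 0.23. Both siZNF282 arrays were above all siCoCoA arrays for 19 of the 20 genes, against 19.6% of all genes. Without siZNF282 array 2 the count of calls was 8, and HLA-B and TAP2 were among those lost.

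Chemokines and inflammatory cytokines were higher in 16 of 22 tested genes and lower in 1, with a median of 0.94. CCL5, which draws T cells, read 13.08 and 11.59 in siZNF282 cells, against 8.53, 9.59, 8.63 and 8.96 in siCoCoA cells and 6.79 to 7.47 in siNS cells (3.41 ± 0.63, adjusted p = 0.000115). CXCL10, a ligand of CXCR3, read 10.89 and 9.84 against 7.16, 8.09, 7.40 and 7.21 (2.90 ± 0.53, adjusted p = 0.000106). TNFSF10, the death ligand TRAIL, read 9.35 and 9.68 in siZNF282 cells, against 7.0, 7.11, 6.55 and 6.72 in siCoCoA cells and 4.23 to 4.49 in siNS cells (2.67 ± 0.43, adjusted p = 1.72e-05). IL6, the acute-phase cytokine, read 7.96 and 7.50 in siZNF282 cells, against 5.80, 6.14, 6.09 and 5.60 in siCoCoA cells (1.82 ± 0.30, adjusted p = 2.19e-05). TNFSF13B, the B cell factor BAFF, rose by 1.67 ± 0.35. SERPINA3, an acute-phase antiprotease, read 10.21 and 11.22 in siZNF282 cells, against 8.21, 8.27, 8.97 and 8.44 in siCoCoA cells and 8.57 to 9.42 in siNS cells (2.25 ± 0.29, adjusted p = 3.88e-07). Its siCoCoA values lay around the lower end of the siNS range. The call in the other direction was CXCL6, a neutrophil chemokine, with 6.05 and 6.25 in siZNF282 cells against 6.75, 6.94, 6.74 and 7.15 in siCoCoA cells (-0.74 ± 0.24, adjusted p = 0.025), and it was named after its value was seen. Of 15 NF-kB subunits and feedback inhibitors, 6 were called higher and 0 lower (median 0.48). The feedback inhibitor TNFAIP3, or A20, read 9.13 and 9.12 against 8.35, 8.21, 8.06 and 8.01 (0.97 ± 0.21, adjusted p = 0.000836). The subunit RELB rose by 0.92 ± 0.23. Without siZNF282 array 2 there were 2 calls among these 15, and that of RELB was lost.

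The 6 interferon and inflammatory lists together held 121 tested genes, of which 69 were called higher and 1 lower in dex, with a median of 0.87, against 10.5% in each direction and a median of -0.02 over all genes. Of the 51 that were not called, 42 had a positive difference and 25 had both siZNF282 arrays above all siCoCoA arrays. Over all genes, 19.6% had both siZNF282 arrays above. Levels in siNS cells give the setting. Of the 121, 106 were called higher in siZNF282 than in siNS cells (median 2.36), and 88 were called higher in siCoCoA than in siNS cells (median 1.30). These comparisons share the siNS arrays, and the pair was chosen for its shared changes, so the counts are a description. Of all genes, 1642 and 1167 were called in that direction.

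**Figure D2:**
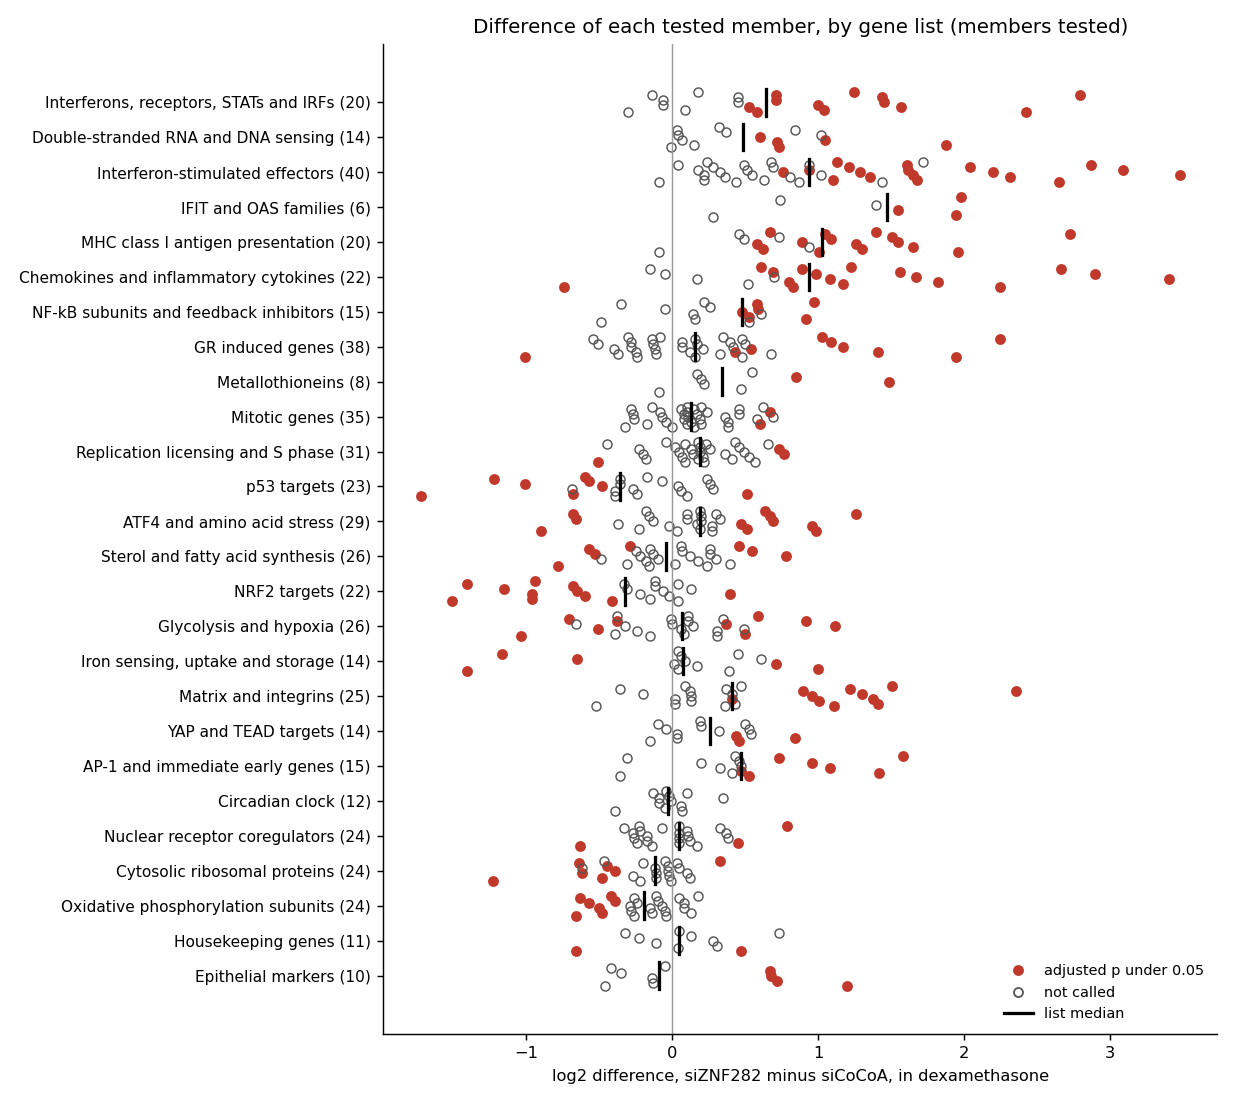
Log2 difference, siZNF282 minus siCoCoA, in dex (horizontal axis) of each tested member of 26 gene lists, with the number tested in brackets. Filled points were called at an adjusted p under 0.05, open points were not, and a bar marks each list's median. The 6 upper rows, the interferon and inflammatory lists, have medians of 0.49 to 1.48, and the NRF2 and p53 rows have medians of -0.32 and -0.36.

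Cells without hormone gave a second view of the pair on other arrays. In ethanol, 1235 genes (11.6%) were called higher and 1454 (13.7%) lower in siZNF282 than in siCoCoA cells. Of the 2228 genes called in dex, 2152 had the same sign in ethanol and 1495 were also called the same way there, which was 67.1% of the dex calls and 55.6% of the ethanol calls. Called in both, but in opposite directions, were 3 genes. The lambda interferon IFNL1 differed by 3.17 in ethanol and by 2.80 in dex, BST2 by 3.56 and 3.09, CXCL10 by 3.86 and 2.90, and IFITM1 by 4.00 and 2.87. Of the 121 interferon and inflammatory genes, 90 were called higher in ethanol and 0 lower, with a median of 1.41. The signed difference was lower in dex than in ethanol for 100 of them (82.6%) and for 45.4% of all genes. Where a difference is negative, lower means a larger gap, so the 2 shares do not compare sizes alike. The median dex response of the 121 was -0.06 in siZNF282 cells, 0.46 in siCoCoA cells and 0.05 in siNS cells. In dex against ethanol, 4 of them were called higher and 5 lower in siZNF282 cells, beside 3.9% and 2.29% of all genes. In siCoCoA cells 10 were called higher and 4 lower, beside 5.36% and 4.56% of all genes. In the test of the difference between the 2 dex responses, 0 of the 121 were called by limma, and 16 had an unadjusted p under 0.05. The 2 siZNF282 ethanol arrays correlated at 0.975, below the 0.987 of the dex pair. Without ethanol array 2 the count of ethanol calls was 1117.

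**Figure D3:**
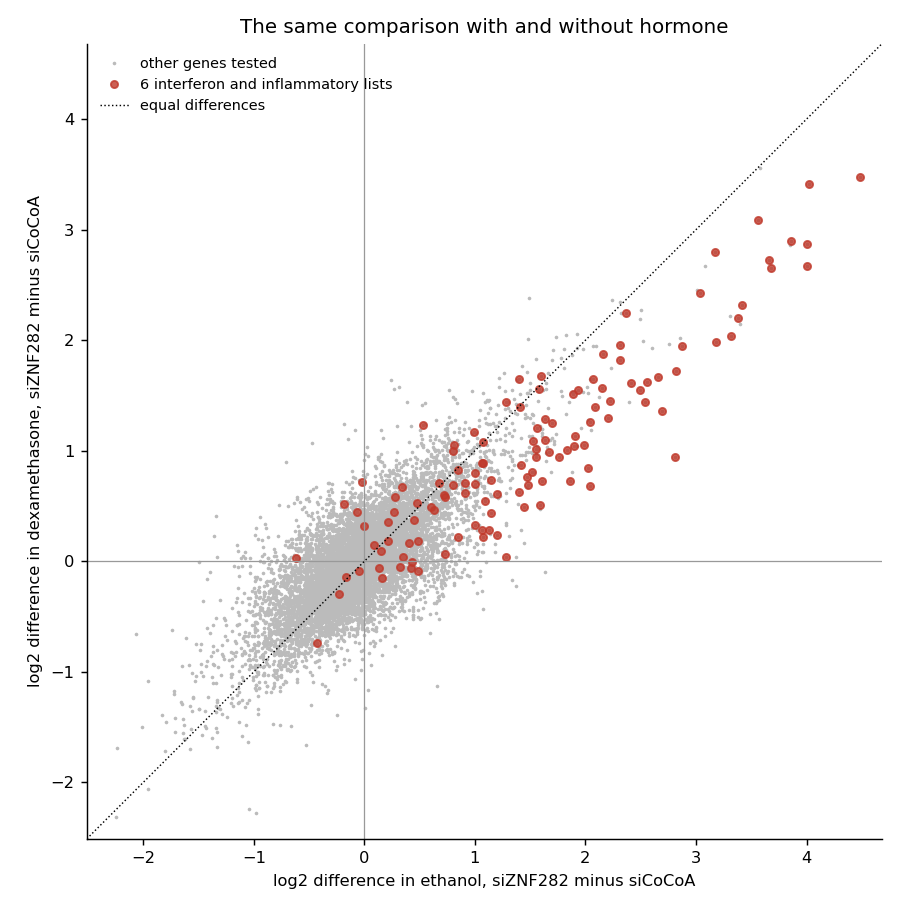
Log2 difference, siZNF282 minus siCoCoA, in dex (vertical axis) against the same difference in ethanol (horizontal axis), with a point per gene. Red points are the 121 genes of the 6 interferon and inflammatory lists, grey points are the other tested genes, and the dotted line marks equal differences. Most red points, 100 of 121, lie below the dotted line.

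Genes outside the interferon lists rose as well, but the lists do not hold every interferon-inducible gene, as WARS1 below shows. The 10 largest rises outside the interferon lists, a choice made after the values were seen, included IL18BP, SLC15A3, CFB and LGALS9, described above, and FZD4, COL4A1, LBP, WARS1, GLIPR1 and GBP4. COL4A1, a chain of basement membrane collagen, read 11.22 and 10.69 in siZNF282 cells, against 8.76, 8.73, 8.61 and 8.27 in siCoCoA cells and 7.97 to 8.33 in siNS cells (2.36 ± 0.20, adjusted p = 9.94e-11). FZD4, a Wnt receptor, read 8.62 and 8.34 against 5.87, 5.92, 6.26 and 6.34 (2.38 ± 0.26, adjusted p = 2.67e-08). LBP, which hands bacterial lipopolysaccharide to CD14, read 7.35 and 7.63 against 5.31, 5.21, 4.90 and 5.14 (2.35 ± 0.25, adjusted p = 1.24e-08). WARS1, the interferon-inducible tryptophanyl-tRNA synthetase, read 11.79 and 11.11 in siZNF282 cells, against 8.92, 9.20, 9.04 and 9.54 in siCoCoA cells and 8.60 to 9.29 in siNS cells (2.27 ± 0.24, adjusted p = 1.24e-08). The siCoCoA values of WARS1 overlapped the siNS range. GLIPR1, a secreted CAP-family protein, rose by 2.25 ± 0.25, and the GTPase GBP4 by 2.22 ± 0.36.

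Matrix and integrin genes were higher in siZNF282 cells in 11 of 25 tested and lower in 0, with a median of 0.41. Over all genes, 10.5% were called in each direction. COL4A2, which pairs with COL4A1, read 7.67 and 7.59 in siZNF282 cells, against 6.22, 6.19, 5.83 and 6.24 in siCoCoA cells (1.51 ± 0.21, adjusted p = 1.40e-06). ITGA5, the fibronectin receptor subunit, read 9.17 and 9.09 against 7.40, 7.81, 7.78 and 7.88 (1.41 ± 0.26, adjusted p = 0.000115). TIMP2, COL5A1 and ITGB4 rose by 1.38 ± 0.22, 1.30 ± 0.25 and 1.22 ± 0.30. The call of ITGB4 was lost without siZNF282 array 2. Of 15 AP-1 and immediate early genes, 7 were called higher and 0 lower (median 0.47). JUN read 7.60 and 7.61 in siZNF282 cells, against 5.39, 6.32, 6.52 and 6.52 in siCoCoA cells and 6.08 to 6.60 in siNS cells (1.42 ± 0.27, adjusted p = 0.000183). FOS, its AP-1 partner, read 8.84 and 9.02 in siZNF282 cells, against 7.59, 7.0, 7.23 and 7.58 in siCoCoA cells and 7.20 to 8.36 in siNS cells (1.58 ± 0.25, adjusted p = 1.49e-05). In ethanol FOS read 6.21 and 6.30 against 6.01, 5.83, 6.27 and 5.69 and differed by 0.31 (adjusted p = 0.40), but the difference between the 2 dex responses was not called (1.27, adjusted p = 0.168). The MAPK phosphatase DUSP5 and the feedback inhibitor SPRY4 rose by 0.73 ± 0.23 and 1.08 ± 0.19, and the call of DUSP5 was lost without siZNF282 array 2.

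The 14 largest falls were C9orf152, FBXL16, HMGN5, SNORA12, TP53I3, LHPP, SYT11, IFI27L2, DGCR5, PARM1, CMBL, SCARNA13, CYFIP2 and ANXA13, with falls of 1.58 to 2.31 on the log2 scale. C9orf152 read 4.88 and 5.19 in siZNF282 cells, against 7.12, 7.33, 7.05 and 7.88 in siCoCoA cells and 6.09 to 7.50 in siNS cells (-2.31 ± 0.34, adjusted p = 3.74e-06). FBXL16, an F-box protein, read 5.82 and 5.61 against 8.53, 7.60, 7.89 and 7.95 (-2.28 ± 0.30, adjusted p = 5.60e-07). HMGN5, a nucleosome-binding protein, read 4.28 and 4.99 in siZNF282 cells, dim on both arrays, against 7.10, 7.08, 6.77 and 6.53 in siCoCoA cells, and was at least 3.66-fold lower (-2.24 ± 0.26, adjusted p = 6.46e-08). For each of these 3 the siCoCoA values overlapped the siNS range, and the siZNF282 values lay under both. SNORA12, a small nucleolar RNA, read 5.56 and 6.13 against 8.33, 7.77, 7.60 and 7.92 (-2.06 ± 0.26, adjusted p = 2.31e-07). SCARNA13, a small Cajal body RNA, read 4.69 and 4.74 against 6.57, 6.46, 6.11 and 6.14 and was at least 2.50-fold lower (-1.61 ± 0.29, adjusted p = 9.98e-05). Both are short RNAs inside longer host transcripts, whose RNA their probes may also read. CMBL, a hydrolase, read 7.26 and 7.41 in siZNF282 cells, against 8.93, 8.74, 9.26 and 8.85 in siCoCoA cells (-1.61 ± 0.16, adjusted p = 4.85e-09). CYFIP2, a subunit of the WAVE actin regulator, and LHPP, a histidine phosphatase, fell by 1.60 and 1.70. Among these 14 the 2 siZNF282 arrays disagreed most for DGCR5, a long noncoding RNA, with 4.80 and 6.47 against 7.30, 7.13, 7.27 and 7.47 in siCoCoA cells. Its call (-1.66 ± 0.31) and that of the annexin ANXA13 (-1.58 ± 0.47) were lost without siZNF282 array 2.

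**Figure D4:**
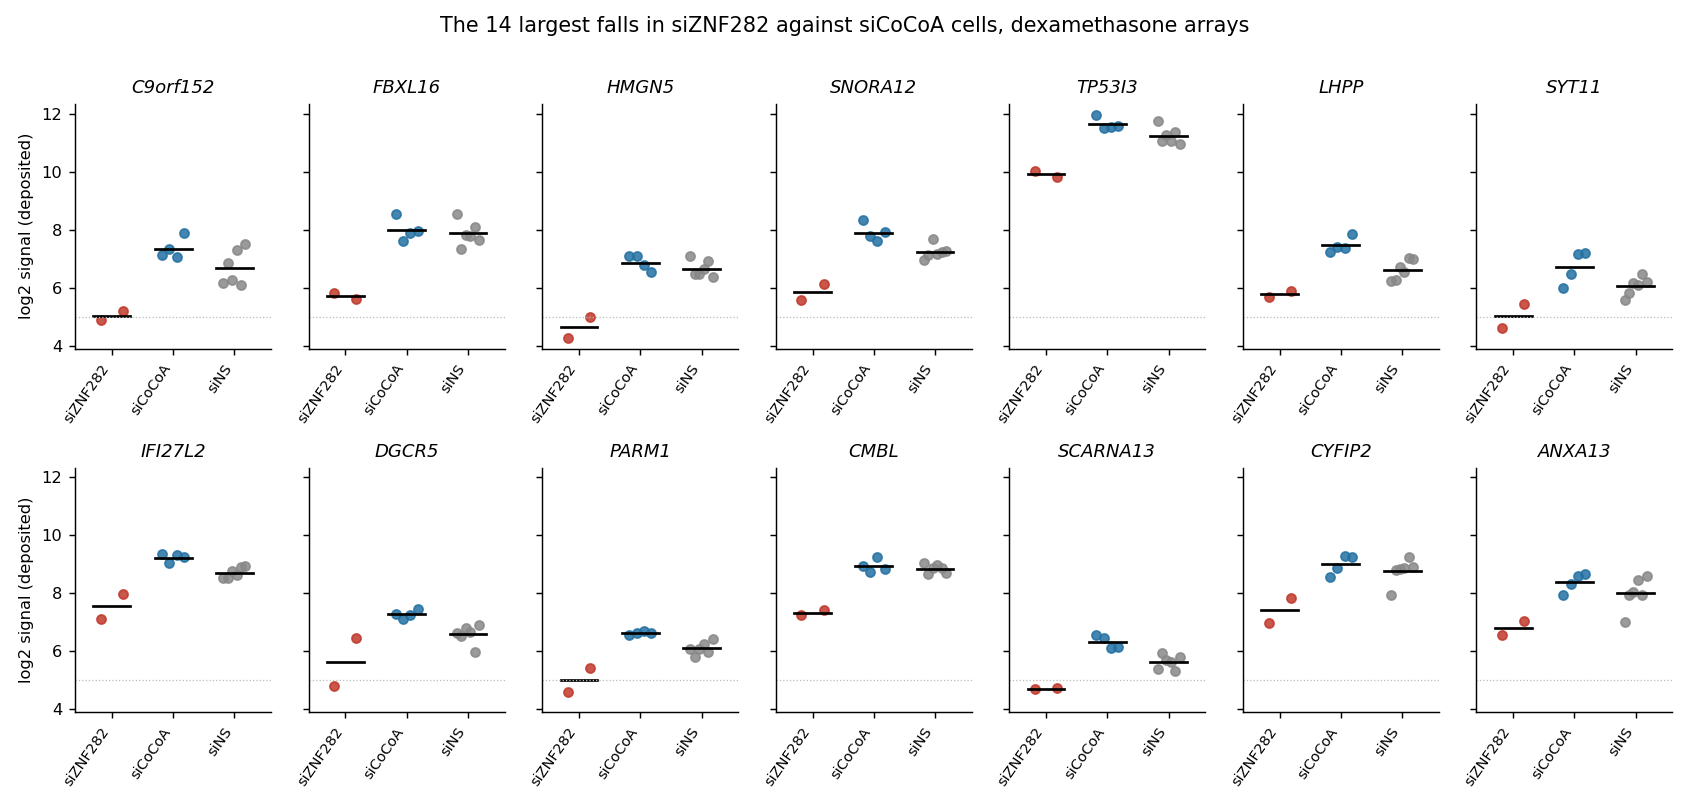
Deposited log2 signal (vertical axis) of the 14 genes with the largest falls, with a point for each dex array of siZNF282 (2), siCoCoA (4) and siNS (6) cells and a bar at each group mean. The dotted line marks 5, the line for dim probes. In each panel both siZNF282 points lie below all siCoCoA points, and for TP53I3 they are 10.03 and 9.82 against 11.52 to 11.96.

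NRF2 targets, the enzymes that a cell makes against oxidants and electrophiles, were lower in siZNF282 cells in 10 of 22 tested genes and higher in 1, with a median of -0.32. The share of all genes called was 10.5% in each direction. PIR, an iron-binding nuclear protein, read 9.62 and 9.72 in siZNF282 cells, against 11.29, 11.17, 11.15 and 11.12 in siCoCoA cells and 10.69 to 10.86 in siNS cells (-1.51 ± 0.14, adjusted p = 7.35e-10). HMOX1, which breaks down haem, read 7.77 and 8.57 in siZNF282 cells, against 9.68, 9.59, 9.56 and 9.49 in siCoCoA cells and 9.18 to 9.65 in siNS cells (-1.41 ± 0.25, adjusted p = 8.14e-05). GPX2, a glutathione peroxidase, read 12.86 and 12.69 in siZNF282 cells, against 13.79, 13.99, 13.89 and 14.05 in siCoCoA cells and 12.86 to 13.30 in siNS cells (-1.15 ± 0.16, adjusted p = 1.52e-06). For GPX2 the siCoCoA arrays stood above the siNS range, and for PIR the 2 depletions stood on either side of it. GCLM, the modifier subunit of glutathione synthesis, fell by 0.96 ± 0.17. SRXN1, which repairs peroxiredoxins, fell by 0.96 ± 0.17, and UGDH, which makes UDP-glucuronate, by 0.94 ± 0.13. The member called higher was AKR1C2, an aldo-keto reductase (0.40 ± 0.12, adjusted p = 0.0113), named after its value was seen. In ethanol 9 of the 22 were called lower and 0 higher.

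Of 23 p53 targets, 7 were called lower and 1 higher, with a median of -0.36, beside 10.5% of all genes in each direction. TP53I3, a quinone oxidoreductase, read 10.03 and 9.82 in siZNF282 cells, against 11.96, 11.52, 11.55 and 11.58 in siCoCoA cells and 10.97 to 11.74 in siNS cells (-1.72 ± 0.17, adjusted p = 3.74e-09). DDB2, which recognises ultraviolet damage, read 5.85 and 6.08 against 7.21, 7.14, 7.33 and 7.06 (-1.22 ± 0.19, adjusted p = 8.49e-06). BAX, the pore-forming death protein, read 9.39 and 9.42 in siZNF282 cells, against 10.45, 10.22, 10.47 and 10.53 in siCoCoA cells and 9.88 to 10.26 in siNS cells (-1.01 ± 0.18, adjusted p = 9.01e-05). TIGAR, FBXO22 and AEN fell by 0.68, 0.60 and 0.57. The call of FBXO22 was lost without siZNF282 array 3. That of AEN was lost without any of siZNF282 array 2 and the 4 siCoCoA arrays, with no filter and with probes averaged. The TRAIL receptor gene TNFRSF10B was the member called higher (0.51 ± 0.15, adjusted p = 0.0117), named after its value was seen. MDM2, the ubiquitin ligase that p53 induces, differed by 0.24 (95% interval -0.18 to 0.66).

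Some respiratory chain and ribosomal protein genes fell, and most were not called. Of 24 oxidative phosphorylation subunits, 7 were called lower and 0 higher (median -0.20), beside 10.5% of all genes in each direction. CYC1, the cytochrome c1 of complex III, read 10.82 and 10.76 in siZNF282 cells, against 11.39, 11.51, 11.44 and 11.45 in siCoCoA cells and 11.22 to 11.78 in siNS cells (-0.66 ± 0.12, adjusted p = 0.000178). With the 2 groups alone, 2 of these genes were called, and 2 without siZNF282 array 2. Of 24 cytosolic ribosomal proteins, 6 were called lower and 1 higher (median -0.12). RPL29 read 6.80 and 6.94 in siZNF282 cells, against 8.10, 8.35, 7.94 and 8.04 in siCoCoA cells and 8.41 to 8.66 in siNS cells (-1.23 ± 0.12, adjusted p = 4.85e-09). RPL5 and RPL4 fell by 0.64 and 0.62, calls that were lost without siZNF282 array 2. With the 2 groups alone 3 ribosomal genes were called lower, 2 without siZNF282 array 2 and 3 without array 3. Ribosomal protein genes have many processed pseudogenes that their probes may also read.

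Stress and metabolic lists held calls in both directions, and several of the shares lay near the 10.5% of all genes called in each direction. Of 29 ATF4 and amino acid stress genes, 8 were called higher and 3 lower (median 0.19). VLDLR, a lipoprotein receptor, rose by 1.26 ± 0.22. DDIT3, the stress factor CHOP, rose by 0.99 ± 0.25 and was not called without siZNF282 array 3. ATF3, which is also an AP-1 gene, rose by 0.96 ± 0.27 and was not called without array 2. The cystine transporter SLC7A11 and the stress protein NUPR1 fell by 0.68 ± 0.16 and 0.90 ± 0.28, and the call of NUPR1 was lost without siZNF282 array 3 or siCoCoA array 4. With the 2 groups alone 5 of the 29 were called higher, 5 without siZNF282 array 2 and 4 without array 3. The calls lower were 1 without array 3. Of 26 glycolysis and hypoxia genes, 5 were called higher and 4 lower (median 0.07), among them the neuronal enolase ENO2 (1.12 ± 0.21) and the pyruvate dehydrogenase kinase PDK3 (-1.04 ± 0.33). A second PDK3 probe differed by -0.03, and the PDK3 call was lost with probes averaged and without siZNF282 array 2 or siCoCoA array 3. Of 26 sterol and fatty acid genes, 3 were called higher and 4 lower (median -0.04). SREBF1, the master factor of lipid synthesis, rose by 0.78 ± 0.16, while HMGCS1, ACACA and PMVK fell by 0.53, 0.57 and 0.78, calls lost without siZNF282 array 2. Of 14 iron genes, 2 were called higher and 3 lower. The iron importer SLC11A2 rose by 1.00 ± 0.15. ACO1, the iron-sensing aconitase, read 7.01 and 7.74 in siZNF282 cells, against 8.53, 8.06, 8.80 and 8.80 in siCoCoA cells and 10.15 to 10.33 in siNS cells. Both depletions stood well under the siNS range for ACO1 (-1.17 ± 0.35, adjusted p = 0.0148, lost without siZNF282 array 2).

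GR induced genes bear on the coregulators' known role. Of 38 tested, 13 were called higher and 2 lower in siZNF282 cells in ethanol (median 0.33), beside 11.6% and 13.7% of all genes. In dex 8 were called higher and 1 lower in siZNF282 cells, with a median of 0.16, beside 10.5% of all genes in each direction. Besides SERPINA3, the called members included IGFBP1, a secreted binder of insulin-like growth factors, which read 10.20 and 9.53 in siZNF282 cells, against 7.49, 7.98, 8.06 and 8.13 in siCoCoA cells and 6.72 to 7.99 in siNS cells (1.95 ± 0.38, adjusted p = 0.00026). TGFBR3, a TGF-beta coreceptor, read 9.91 and 10.07 against 8.56, 8.70, 8.60 and 8.46 (1.41 ± 0.14, adjusted p = 5.32e-09). LCN2, KLF6 and PLIN2 rose by 1.17 ± 0.20, 1.09 ± 0.20 and 1.03 ± 0.19. Several classical GR targets were not called. TSC22D3, the anti-inflammatory protein GILZ, read 11.71 and 11.94 in siZNF282 cells, against 11.92, 11.36, 11.91 and 11.47 in siCoCoA cells (0.16, 95% interval -0.30 to 0.62). DUSP1, a phosphatase that ends MAPK signalling, differed by 0.21 (-0.15 to 0.56). The member called lower was KLF9, a zinc finger factor, with 7.66 and 7.79 in siZNF282 cells, against 8.94, 8.48, 8.93 and 8.60 in siCoCoA cells and 7.65 to 8.40 in siNS cells (-1.01 ± 0.30, adjusted p = 0.0146). TSC22D3, DUSP1 and KLF9 were named after their values were seen. Of 8 metallothionein list genes, 4 were called higher in ethanol. In dex MT1H (1.49 ± 0.39) and MT1F (0.85 ± 0.31) were called higher. These paralogs may share signal, the call of MT1H was lost without siZNF282 array 3, and that of MT1F when any of 5 of the 6 arrays was left out and under 4 other settings.

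A second set was taken from siNS cells, the 245 genes (2.31% of those tested) that dex had changed at least 2-fold there. Of the 182 raised by dex, 23 were called higher and 21 lower in siZNF282 than in siCoCoA cells, with a median difference of 0.02, shares near the 10.5% of all genes called in each direction. Of the 63 lowered by dex, 13 were called higher and 15 lower, with a median of -0.25, shares above the 10.5% of all genes. The median dex response of the 182 was 1.30 in siZNF282 cells, 1.31 in siCoCoA cells and 1.43 in siNS cells, and that of the 63 was -0.97, -1.01 and -1.21. The siNS arrays marked these genes, which enlarges their own medians, so a smaller median in the depletions does not show a weaker response. In dex against ethanol, 145 of the 182 were called higher and 35 of the 63 lower in siZNF282 cells, against 177 and 59 in siCoCoA cells, which had more arrays. Of all genes, 6.19% were called in siZNF282 cells and 9.93% in siCoCoA cells. Beyond genes already described, NRP1, a semaphorin and VEGF coreceptor, read 10.74 and 11.06 in siZNF282 cells, against 9.59, 9.51, 9.39 and 9.39 in siCoCoA cells and 8.67 to 8.94 in siNS cells (1.43 ± 0.16, adjusted p = 2.51e-08). REEP1, which shapes the endoplasmic reticulum, read 4.84 and 4.75 in siZNF282 cells, against 5.69, 6.10, 6.47 and 6.47 in siCoCoA cells and 5.18 to 6.38 in siNS cells, and was at least 2.27-fold lower. F2RL2, a thrombin receptor, read 4.71 and 4.48 in siZNF282 cells, against 6.37, 5.73, 5.59 and 6.24 in siCoCoA cells and 4.40 to 4.93 in siNS cells, and was at least 1.98-fold lower. In F2RL2 the siCoCoA arrays were the ones outside the siNS range. C1orf116, known as a target of steroid receptors, fell by 1.34 ± 0.47. That call was lost without siZNF282 array 2 or 3, without siCoCoA array 2, 3 or 4 and with no filter. Of the 245, 72 were called in all, 39 without siZNF282 array 2 and 44 without array 3.

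Whether the 2 depletions answered dex differently was tested gene by gene as a difference of differences. Of 10608 genes, 2 were called (0.0189%), 1 in each direction (0.00943%), and 760 had an unadjusted p under 0.05. EMP1, a membrane protein of epithelia, read 9.62 and 9.96 in dex and 6.91 and 6.78 in ethanol in siZNF282 cells. In siCoCoA cells it read 9.27, 9.32, 9.77 and 9.16 in dex and 7.85, 8.29, 8.30 and 8.33 in ethanol. Its dex response was 2.94 ± 0.26 in siZNF282 cells, 1.19 ± 0.19 in siCoCoA cells and 2.49 ± 0.15 in siNS cells (difference 1.75, adjusted p = 0.022). The groups overlapped in dex (0.41, not called) and stood apart in ethanol (-1.34). CKB, the brain-type creatine kinase, read 8.93 and 8.88 in dex and 8.69 and 8.19 in ethanol in siZNF282 cells. In siCoCoA cells it read 8.64, 8.97, 8.96 and 8.87 in dex and 7.27, 7.08, 7.25 and 6.70 in ethanol. Its dex response was 0.46 ± 0.19 in siZNF282 cells, 1.79 ± 0.14 in siCoCoA cells and 1.24 ± 0.11 in siNS cells (difference -1.32, adjusted p = 0.022). In both genes the depletions overlapped in dex and stood apart in ethanol. This count depended on single arrays and on the fit. It was 0 with the 4 groups alone or with array weights, 0 without siZNF282 dex array 2 or siCoCoA ethanol array 4, 16 without siZNF282 dex array 3, 9 without siZNF282 ethanol array 2 and 217 without siZNF282 ethanol array 3.

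**Figure D5:**
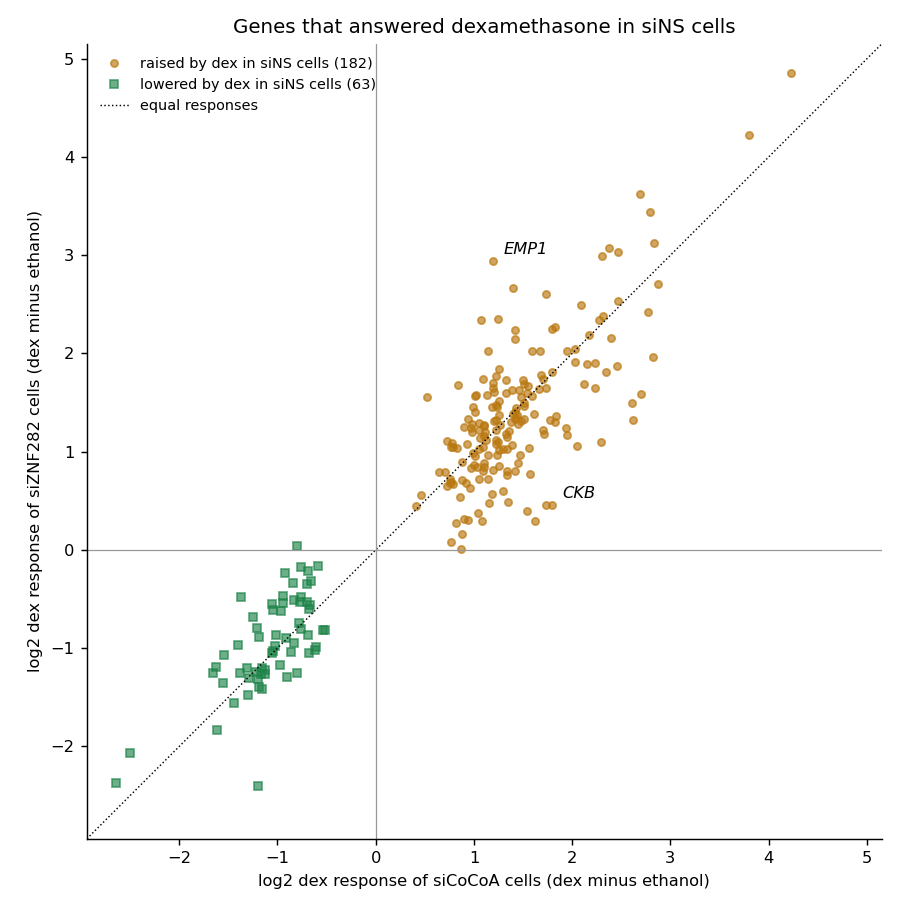
Dex response (dex minus ethanol, log2) in siZNF282 cells (vertical axis) against that in siCoCoA cells (horizontal axis) for the 245 genes that dex changed at least 2-fold in siNS cells. Circles were raised and squares lowered in siNS cells, and the dotted line marks equal responses. The medians of the raised genes are 1.30 and 1.31, and EMP1 (2.94 against 1.19) and CKB (0.46 against 1.79) are the genes whose difference was called.

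The remaining lists are given beside the 10.5% of all genes called in each direction. Of 12 circadian clock genes 0 were called in either direction by limma (median -0.03), with PER2 at -0.09 (95% interval -0.41 to 0.22) and BHLHE40 at 0.06 (-0.24 to 0.36). Of 35 mitotic genes 2 were called higher and 0 lower (median 0.13), and of 31 replication genes 2 and 1 (median 0.19). The mitotic list averaged 7.95 and 8.32 on the siZNF282 arrays, 7.76 to 8.27 on the siCoCoA arrays and 8.54 to 8.92 on the siNS arrays, so that both depletions stood under siNS cells and overlapped each other. Of 24 nuclear receptor coregulators 2 were called higher and 1 lower, NCOA7 (0.79 ± 0.16), NCOA1 (0.45 ± 0.15) and PRMT1 (-0.63 ± 0.16). The call of PRMT1 was lost without siZNF282 array 2, and that of NCOA1 without 5 of the 6 arrays and with probes averaged. Of 14 YAP and TEAD targets 3 were called higher and 0 lower, among them AXL (0.84 ± 0.22, lost without siZNF282 array 3). Of 11 housekeeping genes, GUSB (0.47 ± 0.12) was called higher and PPIA (-0.66 ± 0.20) lower, and these were lost without siZNF282 array 3 (GUSB, also with the 2 groups alone) and without array 2 (PPIA).

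Markers of cell type were read to check the label. Of 10 epithelial markers, 4 were called higher and 0 lower, while the other 6 had negative differences and the median was -0.09. For 4 of the 10 both siZNF282 arrays lay below all siCoCoA arrays, as they did for 20.9% of all genes. The list averaged 8.84 and 8.90 in siZNF282 cells and 8.58 to 8.76 in siCoCoA cells. EPCAM, an epithelial adhesion molecule, rose by 1.20 ± 0.22, and KRT8, a simple-epithelium keratin, read 12.89 and 12.86 in siZNF282 cells, against 12.17, 12.35, 11.96 and 12.33 in siCoCoA cells, a call lost without siZNF282 array 2. The 4 fibroblast markers tested averaged 4.70 and 5.06 in siZNF282 cells and 4.94 to 5.42 in siCoCoA cells, near the line of 5, and the endothelial TEK read 4.40 and 4.70 against 4.37 to 4.61. Of 12 leukocyte markers, CD68 and CD14 alone passed the filter. CD68, a lysosomal protein of macrophages, read 12.99 and 12.80 in siZNF282 cells, against 10.37, 10.87, 10.76 and 10.82 in siCoCoA cells and 8.62 to 9.69 in siNS cells (2.19 ± 0.38, adjusted p = 4.94e-05). CD14 differed by -0.68 (adjusted p = 0.0505). Of 4 alveolar type II markers tested, LAMP3 was called, and SFTPD, NAPSA and ABCA3 differed by 0.37, 0.34 and 0.20 and were not.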

How the data were processed

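The values were log2 probe intensities, as the authors deposited them, with nearly equal array medians (4.67 to 4.69). The submitters' processing notes name limma 3.14.4, and the background correction and normalization are not given in the sources used here. The log base was read from the range of the values, 4.13 to 14.3. Precision is set by how many arrays a group has. A second table of signals by chip position (80 columns, which no label pairs with a sample) was not used. Starting from 34469 probes, those with 1 gene symbol and a mean above 5 in at least 1 group were kept (13903), and the brightest probe stood for each of 10608 genes.

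The fit was limma 3.58.1 (lmFit, eBayes; R 4.3.3) over the 40 arrays, with a term for each of the 10 groups, leaving 30 residual degrees of freedom beside 5.86 from the prior. P-values are 2-sided and carry the Benjamini-Hochberg adjustment. "At least" folds set the brighter group's mean against 5 where every array of the dimmer group lay under 5. The fit was tested on simulated data. The members, 31 gene lists and tests were chosen with earlier results of these data known. Named genes were the 14 largest rises and 14 largest falls among called genes, the 10 largest falls outside the interferon lists, the receptor and the siRNA targets, at most 6 called members per list (the 2 brightest where none was called), up to 4 of each sign for the difference in dex response and up to 6 of each sign among the dex-responsive genes of siNS cells (2-fold or more). The 10 largest rises outside the interferon lists were added after the values were seen. Alternatives changed the filter, the probe rule, the groups fitted, the normalization, the variance model, array weights, the block and each array left out. Promoters were taken from RefSeq (GRCh38.p14) by symbol.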

Additional observations from a re-analysis of the deposited data

Results flagged for a closer look

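In 4 of 157 named genes, a single siCoCoA dex array stood far from the other 3 by Dixon's test. Chance gives such an array in about 1 in 20 groups, so that 4 of 157 is no more than chance gives. COL4A2 read 5.83 on siCoCoA array 3 and 6.19 to 6.24 on the others. NUSAP1, a spindle protein, read 9.33 on array 2 and 8.77 to 8.86 on the others. TP53I3 read 11.96 on array 1 and 11.52 to 11.58 on the others. ZC3HAV1 read 8.32 on array 1 and 8.06 to 8.10 on the others. The calls of COL4A2, TP53I3, NUSAP1 and ZC3HAV1 held without that array.

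The dex response differed between siZNF282 and siCoCoA cells for EMP1 (1.75, adjusted p = 0.022) and CKB (-1.32, adjusted p = 0.022) by limma's test of the difference itself. These calls depended on the fit and on single arrays. With the groups of the contrast alone, or with array weights, 0 genes were called.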

How the results depend on the processing

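Of the 157 named genes, 148 were called in dex, and 79 of these kept their call and direction under all 15 settings. No named gene reversed. Pairs of gene and setting were counted for the dex comparison and for the difference in dex response of EMP1 and CKB. Among these pairs, 47 calls were lost and 1380 results stood under the processing settings. With 1 array left out, 144 calls were lost, 1 was gained and 821 results stood. Other normalizations moved no all-gene median by over 0.1. With the groups of each contrast alone, the IFIT and OAS list had 5 calls higher, the ATF4 list 5 higher, the oxidative phosphorylation list 2 lower and the ribosomal list 3 lower, the ethanol comparison had 1428 calls and the difference in dex response 0. With array weights, the ethanol comparison had 1549 calls and the difference in dex response 0. With genes marked at 1.5-fold in place of 2-fold in siNS cells, 221 dex-responsive genes were called. With each array left out in turn, calls in dex ran from 1032 to 2084, in ethanol from 1117 to 2647, in the difference in dex response from 0 to 217 and among dex-responsive genes from 39 to 64. Calls higher ran from 10 to 18 for effectors, 0 to 4 for IFIT and OAS genes, 1 to 5 for sensors, 6 to 11 for interferons and IRFs, 8 to 14 for MHC class I, 11 to 16 for chemokines, 2 to 6 for NF-kB and 4 to 8 for ATF4. Calls lower ran from 1 to 3 for ATF4, 2 to 7 for oxidative phosphorylation and 2 to 5 for ribosomal genes. The cause of these moves was not tested. The groups share the array numbers 2 and 3, and same-numbered arrays correlated at 0.163 and 0.218 in their deviations from the group means. Differently numbered arrays ran from -0.218 to 0.111. The deviations of the 2 siZNF282 arrays mirror each other, and the pairs are too few to show that the numbers pair the arrays. With the replicate block, 2593 genes were called in dex, 3067 in ethanol and 29 for the difference in dex response. Arrays give no count of molecules, and dim probes near 5 limit small differences.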
